A study of Mus musculus with 25 samples.

Results

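The Rab GTPase genes were followed in mouse oocytes and early embryos cultured with PBS or with a small molecule labelled VCD. The genes were taken by name: every protein-coding mouse gene called Rab with a number and, where there is one, a letter from a to f, leaving out pseudogenes and the proteins that bind Rabs. This gave 59 genes. All 59 were listed in the embryo table, which holds 34228 genes, and 54 were listed in the oocyte table, which holds 25158 genes. Rab4b, Rab26, Rab33a, Rab39 and Rab42 were in the embryo table only, and no oocyte value is given for them.

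All samples were of strain C57BL/6, and RNA was copied by Smart-seq2, which makes full-length cDNA from the polyadenylated RNA of very small samples. Oocytes were taken at the germinal vesicle stage and matured for 16 h in M16 medium until metaphase II (MII), when the egg is ready for the sperm. They were cultured with PBS (n = 4 libraries) or VCD (n = 5). Embryos came from in vitro fertilization of 6 h and were grown in G1 and then G2 medium. They were collected as 2-cell embryos with PBS (n = 4) or VCD (n = 4), and as morulae, the compacting ball of cells before the blastocyst cavity, with PBS (n = 4) or VCD (n = 4). PBS is the salt buffer that served as the control. The labels do not spell out VCD, and its dose and how many oocytes or embryos went into a library were not in the sources used here. Nor is it known whether a group's libraries go back to different animals or cultures, so the p-values speak of the spread among these libraries alone.

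Rab proteins are small GTPases that give each membrane compartment of the cell its identity. Bound to GTP on a membrane, a Rab recruits effector proteins such as tethers and motors that move, dock and fuse vesicles. Guanine nucleotide exchange factors (GEFs) load GTP, GTPase-activating proteins (GAPs) end the signal, and GDP dissociation inhibitors carry the inactive protein back through the cytosol. Oocytes use Rab-directed traffic for cortical granules, the secretory vesicles released at fertilization, and cleaving embryos use it to sort membrane to the outer and inner faces of their cells as they polarize.

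Rabs hold on to membranes through lipid groups joined to cysteines at the end of the protein, and the last coding bases of the genes that the results turn on are shown to set the ends of close relatives side by side, some of which differed widely in level. Each line gives the last 30 coding bases before the stop codon, 5′ to 3′, from 1 annotated GENCODE M21 transcript of each gene, with the codons for cysteine in capitals.

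Rab1a: ccagtcaagcagtcaggtggaggcTGCTGC

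Rab1b: cctgtgaagcctgctagcggtggcTGCTGC

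Rab5a: cagccagccagaagccagTGTTGTagtaac

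Rab5b: cagcagaacaagagccagTGTTGTagcaac

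Rab8a: aggaccagcttcttccggTGCagtctcctg

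Rab8b: aagaccagtttcttccgcTGTtctctgctt

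Rab11a: aagccaaaggtgcagTGCTGTcagaacatc

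Rab11b: cccaacaagctgcagTGCTGCcagagcctg

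Rab3d: ccacccccacagccgagcagcTGCagcTGT

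Rab3b: ccacctctgctgcagcagaacTGCtctTGT

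Rab32: cccacaacaaagcccaggtcccagTGCTGC

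Rab38: gttgtcagcTGCtctggcTGTgccaaatcc

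Rab7: gccaaggcctccgcagaaagcTGCagtTGT

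Rab1a, Rab1b and Rab32 ended in a cysteine pair, Rab3d, Rab3b and Rab7 ended in cysteine, another residue and cysteine, Rab5a and Rab5b had a pair followed by 2 other codons, Rab11a and Rab11b had a pair followed by 3 codons, and Rab8a and Rab8b had a single cysteine 4 codons from the end. Over all 59 genes, the last 4 codons held a final pair in 15, the spaced form in 20, a pair followed by 1 codon in 3, a pair followed by 2 codons in 6, and only 1 cysteine, in the first of the 4, in 15. The coding sequences of relatives were alike: 76.1% of aligned bases were identical between Rab1a and Rab1b, 74.3% between Rab5a and Rab5b, 77.4% between Rab8a and Rab8b, 75.1% between Rab11a and Rab11b, 76.9% between Rab3d and Rab3b and 64.4% between Rab32 and Rab38.

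Values are FPKM, fragments scaled to transcript length and library depth, so they are levels per length and relative to the rest of the library. In an embryo sample, fewer cells of a type and less RNA per cell cannot be told apart. Judged from the steps between low FPKM values, a library held 15075831 to 20998296 counted reads, and 1 read in a gene of 1 kb was worth 0.0476 to 0.0663 FPKM. The labelled stages matched the sums of their markers in every library. The summed FPKM of 9 oocyte genes (Zp3, Gdf9 and others) was 8713 to 9510 in MII oocytes with PBS, 2927 to 3764 in 2-cell embryos with PBS and 35.9 to 60.4 in morulae with PBS. The 7 markers of the 2-cell stage (Zscan4c, Zscan4d and others) summed to 19.6 to 24.9, 1397 to 1628 and 15.7 to 26.1 in the same order. The 9 morula markers summed to 111.9 to 142.6, 56.9 to 66.6 and 247 to 345.8. The oocyte sum covers 7 of them, as Nanog and Cdx2 were not listed there. The sum was highest in morulae, but not that of every marker. Cdh1 was at 55.3 to 80 FPKM in oocytes and 21.4 to 33.4 in morulae with PBS, and Gata3 at 18.6 to 21.5 and 5.06 to 18.9. Of the 10 genes of cumulus and granulosa cells, which surround the oocyte, 1 reached 1 FPKM in oocytes with PBS (Cyp19a1), 3 in 2-cell embryos with PBS and 1 in morulae with PBS (Amhr2), with sums of 8.68 to 11.53, 5.50 to 10.7 and 7.91 to 13.97 FPKM. Foxl2, Fshr, Inha, Has2 and Ptx3 were listed at 0 in every morula library with PBS. Of 6 sperm genes, 5 were listed in embryos and 3 in oocytes, and of 4 blood cell genes 3 and 2. The sums of those listed were at most 1.74 and 4.33 FPKM in the PBS groups. The other sums likewise cover listed genes only. In oocytes, 6 of the 7 markers of the 2-cell stage and 9 of the 10 cumulus and granulosa genes were listed. The part of other cells in the Rab values was not tested.

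The set was widely expressed but rested on few genes. In MII oocytes with PBS, 30 of the 54 listed members had a mean of 1 FPKM or more, 14 had 10 or more and 4 had 100 or more. The counts were 38, 20 and 4 of 59 in 2-cell embryos with PBS, and 34, 17 and 2 in morulae with PBS. The listed members summed to 1064.5 ± 16.3 FPKM (SD, n = 4) in MII oocytes with PBS, 1610 ± 44.8 in 2-cell embryos with PBS and 934 ± 23.0 in morulae with PBS, which was 0.353%, 0.456% and 0.256% of all FPKM. With VCD the sums were 1075 ± 27.1 (n = 5), 1657 ± 46.0 (n = 4) and 925 ± 129 (n = 4). The morula libraries with VCD spread from 824 to 1107 FPKM, more than the other groups. Below 1 FPKM in every library were 14 members: Rab3c, Rab4b, Rab6b, Rab7b, Rab9b, Rab15, Rab26, Rab27b, Rab33a, Rab36, Rab37, Rab39b, Rab43 and Rab44. Among these, Rab9b and Rab39b were listed at 0 in all 8 morula libraries, and no member was listed at 0 in every library of the series.

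**Figure D1:**
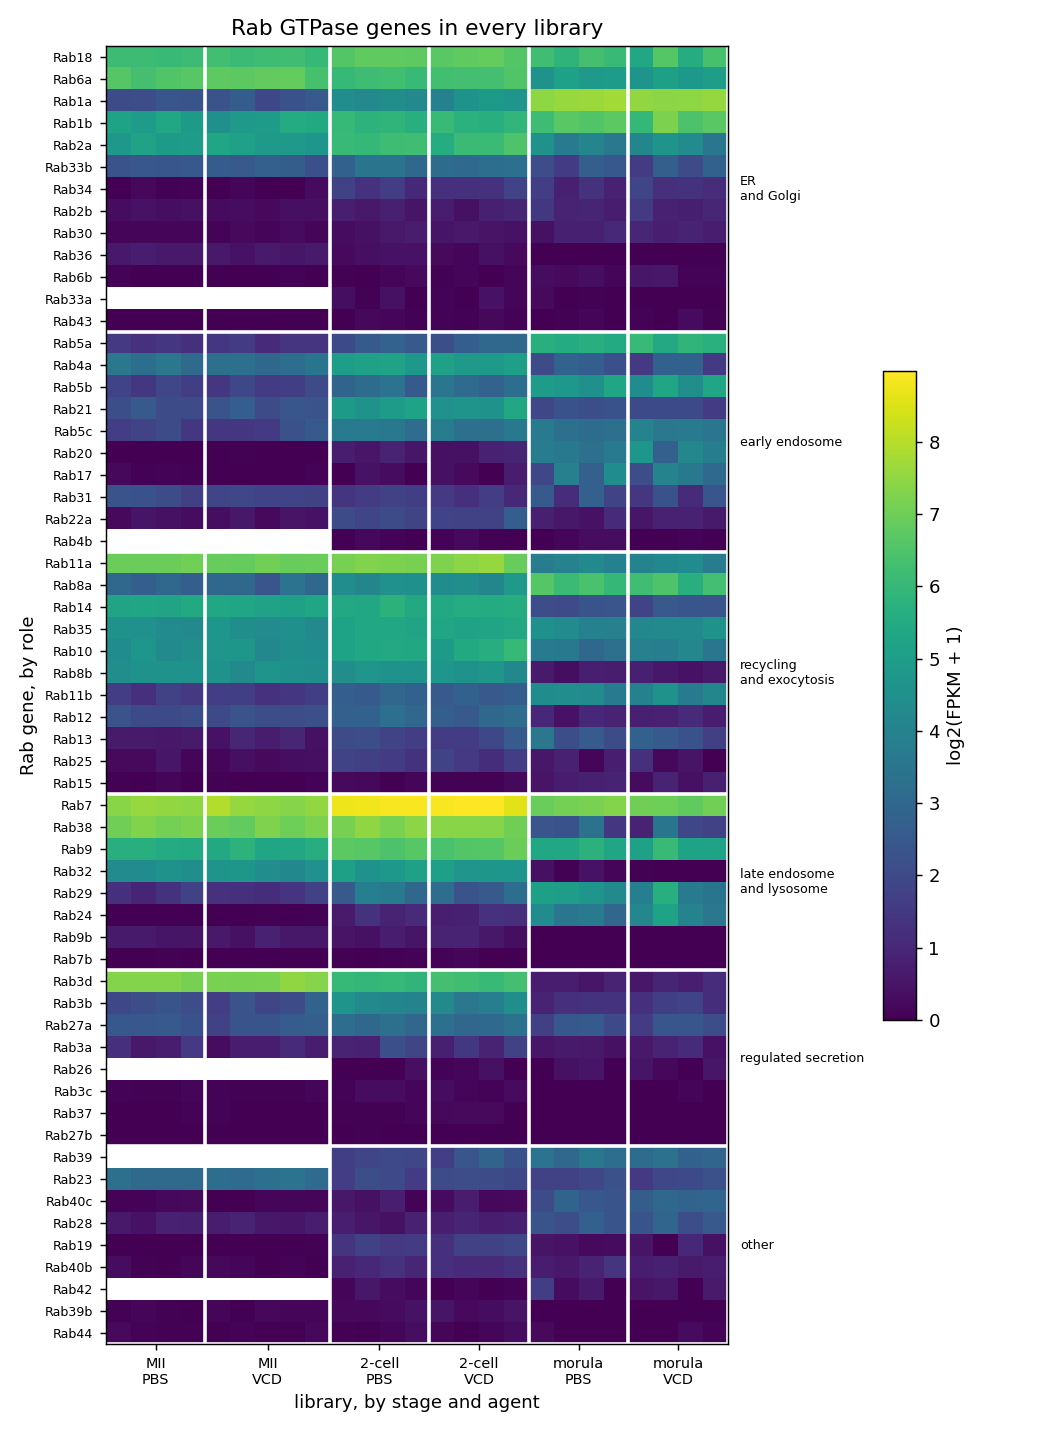
Level of each Rab gene, as log2(FPKM + 1), in each of the 25 libraries (columns, grouped by stage and agent), with the genes (down the side) grouped by role and ordered by mean level within a role. White cells are the 5 genes not listed in the oocyte table. Rab1a and Rab5a are dark in oocytes and bright in morulae, and Rab3d, Rab38 and Rab32 go the other way.

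In MII oocytes with PBS the 5 members of highest level made up 65.4% of the summed Rab FPKM. They were Rab7, the late endosome and lysosome Rab; Rab3d, a Rab of secretory granules; Rab38, known for sorting to lysosome-related organelles such as melanosomes; Rab11a, of the recycling endosome; and Rab6a, of the Golgi. Rab7 measured 165, 195, 186 and 177 FPKM in the 4 libraries and Rab3d 159, 159, 157 and 141 FPKM. Rab38 measured 129.8, 154, 137 and 149.5, Rab11a 124, 122, 123 and 133 and Rab6a 98.3, 79.6, 93.0 and 101 FPKM. Rab7 was highest in each of the 4 libraries, the values of Rab3d and Rab38 overlapped, and Rab6a was the lowest of the 5 in every one.

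In 2-cell embryos with PBS, Rab7 stood far above the rest, with 437, 448, 478 and 483 FPKM. Rab38 (142, 179, 143 and 169.8 FPKM) and Rab11a (140.3, 154, 148 and 142 FPKM) followed and overlapped each other. Rab18, which acts at the endoplasmic reticulum and lipid droplets, measured 95.0, 109.9, 110.2 and 107 FPKM, and Rab9, of late endosome to Golgi transport, measured 104, 99.5, 87.7 and 98.8 FPKM. The 5 together held 60.2% of the Rab FPKM.

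The order was different in morulae with PBS. Rab1a, which drives transport from the endoplasmic reticulum to the Golgi, came first with 173, 191, 196 and 213 FPKM, above Rab7 with 122, 138, 143 and 160.3 FPKM, and the libraries of the 2 genes did not overlap. Rab1b measured 72.9, 101, 91.6 and 106 FPKM, Rab8a, of exocytosis and cilium formation, 97.6, 69.6, 84.4 and 63.1 FPKM, and Rab18 73.7, 56.3, 79.5 and 65.3 FPKM. The last 3 overlapped in part. The 5 held 61.5% of the Rab FPKM.

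By role, the share of the summed Rab FPKM that came from 13 genes of the endoplasmic reticulum and Golgi was 22.1 ± 0.979% (SD, n = 4) in MII oocytes with PBS, 20.6 ± 0.538% in 2-cell embryos with PBS and 43.5 ± 2.09% in morulae with PBS. The 10 early endosome genes held 2.17 ± 0.295%, 5.57 ± 0.303% and 12.8 ± 1.21% in the same order. The 8 genes of the late endosome and lysosome held 37.0 ± 1.51%, 47.1 ± 1.58% and 24.4 ± 0.684%. The 11 genes of recycling and exocytosis held 22.6 ± 0.678%, 20.5 ± 0.517% and 16.1 ± 2.75%, and the 8 of regulated secretion 15.3 ± 0.822%, 5.63 ± 0.507% and 0.662 ± 0.167%. The 9 other genes held 0.832 ± 0.0811%, 0.604 ± 0.0722% and 2.44 ± 0.185%. From 2-cell embryos to morulae with PBS the endoplasmic reticulum and Golgi share, the early endosome share and that of the other genes were higher, and those of late endosome and lysosome, of recycling and exocytosis and of secretion lower, each with no overlap between the libraries of the stages. With VCD the endoplasmic reticulum and Golgi genes held 43.3 ± 2.46% in morulae and the secretion genes 0.785 ± 0.208%. The groups are of unequal size and each rests on a few abundant genes, so the shares describe RNA levels and carry no test.

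**Figure D2:**
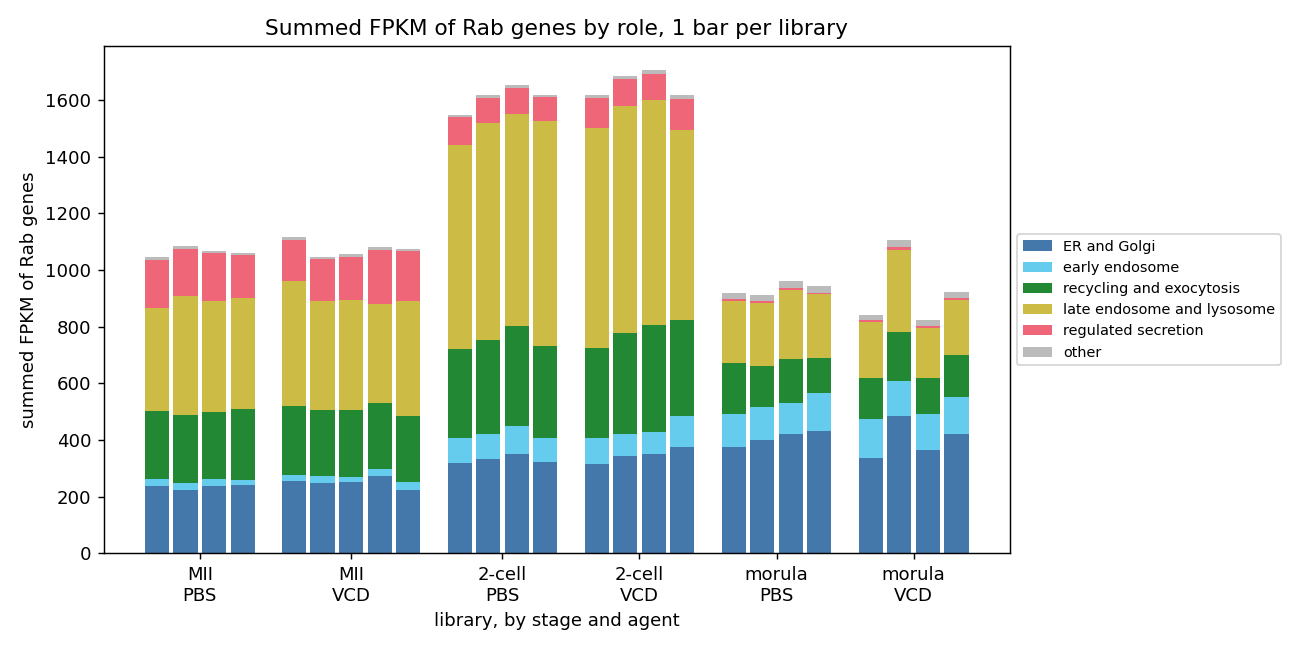
Summed FPKM of the Rab genes in each library (1 bar per library, grouped by stage and agent), stacked by role. The 2-cell bars reach 1547 FPKM or more with PBS, the secretion segment shrinks from oocytes to morulae, and the endoplasmic reticulum and Golgi segment takes the largest share in morulae.

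Oocytes and 2-cell embryos were deposited in separate tables, so their levels are set side by side with no test across them. A member was counted where the libraries did not overlap and the means differed by 2-fold or more. Compared were the members that reached 1 FPKM in at least 4 libraries of either stage. With PBS, 17 of 33 were higher in 2-cell embryos, against 39.8% of all genes so compared. Lower were 2 of 33, against 16.1%. With VCD, 20 of 35 were higher (all genes, 37.3%) and 2 of 35 lower (all genes, 15.4%). Rab13, Rab19, Rab22a and Rab25, and with VCD also Rab34 and Rab40b, were below 1 FPKM in every oocyte library. They entered only through the 2-cell libraries and could hardly fail to be higher, so the counts are descriptions. The 2 lower ones were Rab3d and Rab23 with both agents. Rab3d measured 159, 159, 157 and 141 FPKM in oocytes with PBS and 64.3, 61.5, 63.9 and 57.997 in 2-cell embryos with PBS. Rab23, an inhibitor of hedgehog signalling, measured 8.87, 7.60, 7.68 and 7.60 FPKM in oocytes and 2.10, 3.46, 2.94 and 1.95 in 2-cell embryos. Among those higher were Rab7, Rab9, Rab2a, Rab1a, Rab21, Rab4a and all 3 Rab5 genes. Rab21, of integrin traffic at early endosomes, was at 3.52, 4.73, 3.24 and 3.30 FPKM in oocytes and 29.0, 23.2, 30.5 and 35.8 in 2-cell embryos, and Rab3b, a relative of Rab3d, at 2.85, 3.31, 4.06 and 3.35 and 24.1, 17.7, 16.7 and 15.3 FPKM. Rab3d and Rab3b thus differed in opposite directions between these stages.

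Morulae were then compared with 2-cell embryos within 1 table, with limma on log2(FPKM + 1) over every gene that reached 1 FPKM in at least 4 of the 8 libraries, and p-values adjusted over all of them. Members that passed this filter only through the stage where they are high could hardly fail to differ, so the counts are descriptions. Rab3d, Rab8b, Rab32, Rab19 and Rab25 were below 1 FPKM in every morula library with PBS. Rab17, Rab20, Rab28 and Rab40c were below it in every 2-cell library with PBS. The p-values of these members are therefore descriptions too. With PBS, 40 of the 59 members were tested. Of these, 13 rose, against 42.7% of all genes tested, and 22 fell, against 45.0% of all genes. The share that rose (13 of 40) was below the background and the share that fell (22 of 40) above it. The median change was -0.97 over the members and -0.08 over all genes. In all 35 the libraries of the stages did not overlap. The share of all genes without overlap was not counted, so nothing particular to the members is read from this. The scale of log2(FPKM + 1) understates the change of low genes, so an order by size on it need not hold for the ratio of FPKM. FPKM is relative: rescaling each library by its median ratio moved the median of all genes to -0.44, and then 12 rose and 23 fell, as Rab1b no longer passed (log2 change 0.34, adjusted p = 0.0508) and Rab5c passed as lower (-0.49, adjusted p = 0.012). None of the members described next as risen or fallen changed sign under that scaling.

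Among the 13 that rose, 4 were of the early endosome, and Rab1a had the largest rise on the log2(FPKM + 1) scale, which shrinks the change of genes as low as Rab17 and Rab20. Rab1a, on chr11:20201432-20226856 of GRCm38 in the GENCODE M21 annotation, measured 20.1, 17.9, 20.8 and 17.8 FPKM in the 2-cell libraries with PBS and 173, 191, 196 and 213 FPKM in the morula libraries with PBS. The stages lay far apart, and the log2 change was 3.27 (SE 0.12, adjusted p = 1.04e-09). Rab1b, its close relative, also rose, from 64.2, 55.1, 57.8 and 49.7 to 72.9, 101, 91.6 and 106 FPKM, by only 0.69 (SE 0.15) on the log2 scale. In oocytes with PBS, Rab1b (33.8 ± 5.43 FPKM, SD, n = 4) had been above Rab1a (3.73 ± 0.545), and in morulae with PBS the order was turned (92.9 ± 14.6 against 194 ± 16.2 FPKM).

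Rab5a (chr17:53479234-53507680), the master Rab of early endosomes, measured 3.08, 4.91, 6.04 and 4.81 FPKM in the 2-cell libraries with PBS and 49.1, 45.7, 49.2 and 43.9 FPKM in the morula libraries with PBS, a log2 change of 3.10 (SE 0.17, adjusted p = 2.17e-08). Rab5b, another of the 3 Rab5 genes, measured 6.38, 8.15, 9.67 and 4.87 FPKM in the 2-cell libraries with PBS and 29.7, 26.5, 21.6 and 38.0 FPKM in the morula libraries with PBS, a change of 1.86 (SE 0.22). Rab5c did not pass: it measured 11.6, 11.7, 11.01 and 8.30 FPKM in the 2-cell libraries with PBS and 11.8, 8.99, 8.07 and 9.01 FPKM in the morula libraries with PBS, and its adjusted p was 0.362. The Rab5 genes were thus unlike each other, with Rab5c the highest of the 3 on average in 2-cell embryos and the lowest in morulae.

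Rab17, an epithelial Rab of early and recycling endosomes, and Rab20, of phagosomes and endosomes, went from near 0 to clear levels. Rab17 measured 0, 0.35, 0.217 and 0 FPKM in the 2-cell libraries with PBS and 2.80, 14.0, 5.74 and 20.0 FPKM in the morula libraries with PBS (log2 change 3.07, SE 0.45, adjusted p = 6.80e-05). Its morula libraries lay between 2.80 and 20.0 FPKM, a wide spread that still left every one above the 2-cell libraries. Rab20 was tighter, with 0.64, 0.462, 0.797 and 0.469 FPKM in the 2-cell libraries with PBS and 13.1, 11.5, 8.94 and 12.1 FPKM in the morula libraries with PBS (log2 change 2.96, SE 0.15, adjusted p = 1.20e-08). Of its exon bases, 25.6% overlap the opposite-strand gene E230013L22Rik, which was at 0.658 ± 0.431 FPKM in 2-cell embryos and 0.215 ± 0.172 in morulae with PBS (SD, n = 4).

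Rab8a (chr8:72161200-72183904) rose from 20.5, 16.3, 22.7 and 21.6 FPKM in 2-cell embryos to 97.6, 69.6, 84.4 and 63.1 FPKM in morulae (log2 change 1.90, SE 0.17, adjusted p = 1.02e-06). Its relative Rab8b (chr9:66843664-66919687), which is known for related roles at the plasma membrane, fell: 20.8, 24.6, 23.7 and 23.5 FPKM against 0.563, 0.27, 0.705 and 0.613 FPKM, a change of -3.98 (SE 0.14, adjusted p = 8.50e-10). At the 2-cell stage the libraries of the pair overlapped. In morulae they were far apart, with Rab8a at 78.7 ± 15.4 and Rab8b at 0.538 ± 0.188 FPKM.

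Rab24, a Rab linked to autophagy, rose from 0.58, 1.47, 0.859 and 1.14 to 19.0, 10.6, 11.9 and 6.90 FPKM (log2 change 2.64, SE 0.26, adjusted p = 2.80e-06). Its value is uncertain: 62.4% of its exon bases overlap Prelid1 on the opposite strand, Smart-seq2 does not mark strand, and Prelid1 went from 13.6 ± 1.03 FPKM (SD, n = 4) to 83.4 ± 13.5 FPKM in the same libraries. Reads of the 2 genes cannot be told apart there. The part of Prelid1 in the Rab24 change was not tested.

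The other rises named here were smaller in level. Rab29, a Rab of the lysosome and Golgi known as a regulator of the kinase Lrrk2, measured 4.68, 13.8, 11.97 and 7.23 FPKM in the 2-cell libraries with PBS and 33.7, 30.8, 24.98 and 18.5 FPKM in the morula libraries with PBS (log2 change 1.49, SE 0.30, adjusted p = 7.75e-04). Rab40c, which carries a domain that recruits a ubiquitin ligase, measured 0.494, 0.329, 0.697 and 0.0575 FPKM in the 2-cell libraries with PBS and 3.19, 6.49, 4.44 and 4.0 FPKM in the morula libraries with PBS (log2 change 1.98, SE 0.20, adjusted p = 3.55e-06). Rab28, of photoreceptor and ciliary traffic, went from 0.689, 0.461, 0.327 and 0.786 to 4.07, 3.40, 5.72 and 4.07 FPKM (1.76, SE 0.16). In each the stages did not overlap.

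Rab39 (log2 change 1.47) and Rab11b (1.45) completed the 13. Rab11b set against Rab11a gave another pair of relatives that went in opposite directions. Rab11a measured 140.3, 154, 148 and 142 FPKM in the 2-cell libraries with PBS and 13.1, 14.9, 18.2 and 14.3 FPKM in the morula libraries with PBS, a change of -3.20 (SE 0.13, adjusted p = 2.04e-09), while Rab11b went from 5.45, 4.88, 6.89 and 5.92 to 19.6, 20.4, 19.2 and 11.8 FPKM (1.45, SE 0.19, adjusted p = 2.39e-05). In 2-cell embryos Rab11a was above Rab11b in every library, and in morulae the values of the pair overlapped.

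**Figure D3:**
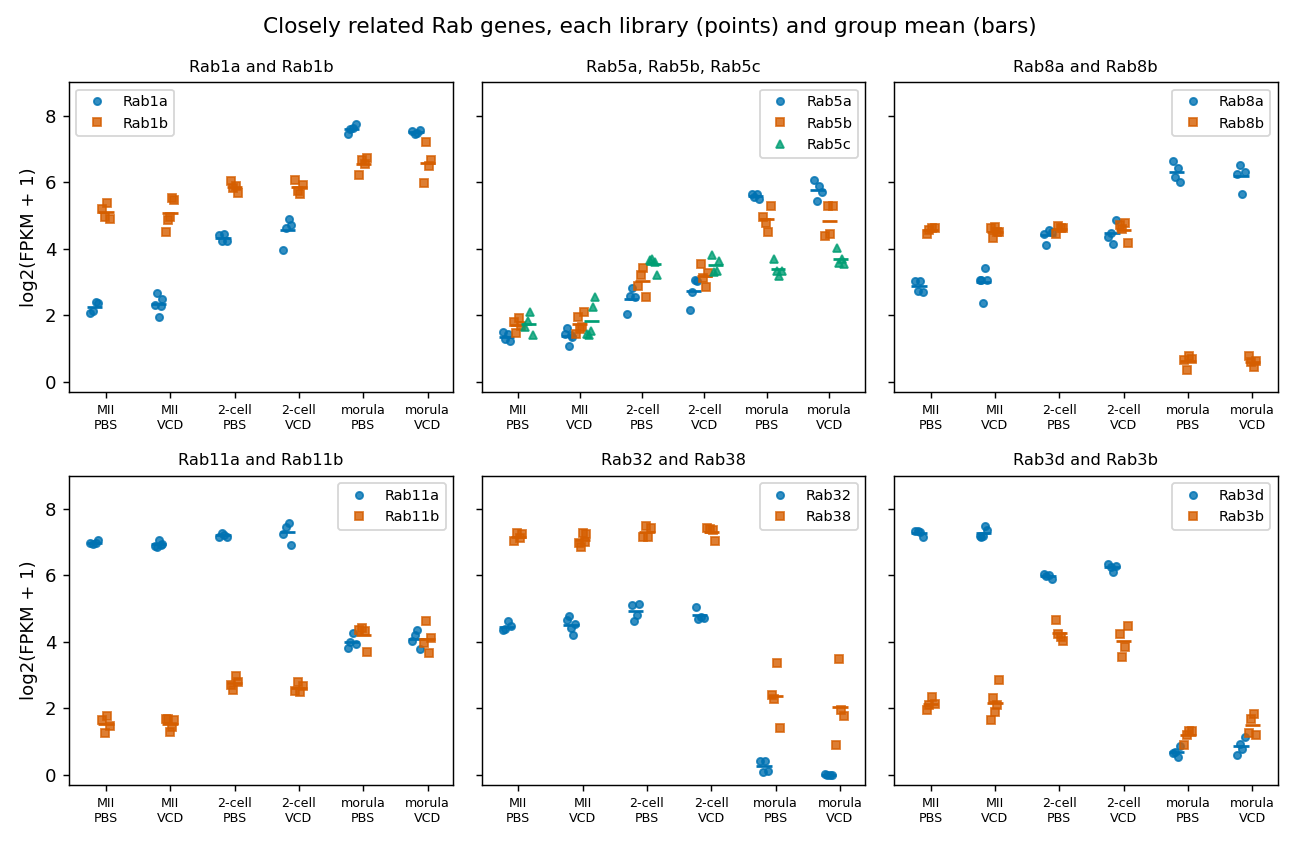
Closely related Rab genes in each library, as log2(FPKM + 1), by stage and agent; points are libraries and bars are group means. Rab8a and Rab8b overlap at the 2-cell stage and part in morulae, Rab11a and Rab11b come together there, and Rab1a passes Rab1b.

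On the log2(FPKM + 1) scale, the 3 deepest falls were in Rabs of secretory granules and lysosome-related organelles. Rab3d (chr9:21907491-21918192), the secretory granule Rab that was among the most abundant in oocytes, measured 64.3, 61.5, 63.9 and 57.997 FPKM in the 2-cell libraries with PBS and 0.59, 0.595, 0.442 and 0.835 FPKM in the morula libraries with PBS. Every morula library was below 1 FPKM, so the p-value that follows is a description. The log2 change was -5.29 (SE 0.13, adjusted p = 9.54e-11). Rab3b, also of regulated secretion, fell from 24.1, 17.7, 16.7 and 15.3 to 0.878, 1.30, 1.503 and 1.49 FPKM (log2 change -3.07, SE 0.17, adjusted p = 2.44e-08).

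Rab38 and Rab32, the pair that sorts cargo to melanosomes and other lysosome-related organelles, fell together. Rab38 (chr7:88430273-88491572) measured 142, 179, 143 and 169.8 FPKM in the 2-cell libraries with PBS and 4.23, 3.86, 9.24 and 1.67 FPKM in the morula libraries with PBS (log2 change -4.95, SE 0.33, adjusted p = 1.05e-07), and Rab32 (chr10:10545002-10558265) measured 33.3, 23.5, 27.04 and 34.0 FPKM in the 2-cell libraries with PBS and 0.326, 0.0496, 0.34 and 0.0936 FPKM in the morula libraries with PBS (-4.66, SE 0.16, adjusted p = 8.77e-10). The morula libraries of Rab38 were uneven, with 1 at 9.24 FPKM and the others lower. Those of Rab32 were all below 1 FPKM. In oocytes, in the other table, the levels had been 143 ± 10.9 FPKM for Rab38 and 21.0 ± 1.92 for Rab32 with PBS (SD, n = 4).

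Rab14, of traffic between the Golgi and endosomes, fell from 42.2, 40.8, 53.2 and 42.6 FPKM in 2-cell embryos to 3.34, 3.28, 4.09 and 4.11 FPKM in morulae (log2 change -3.28, SE 0.14, adjusted p = 3.06e-09). Rab21 fell from 29.0, 23.2, 30.5 and 35.8 to 2.81, 3.79, 3.45 and 3.77 FPKM (-2.77, SE 0.16, adjusted p = 2.92e-08), and its oocyte libraries with PBS, in the other table, had been at 3.24 to 4.73 FPKM. Rab4a, which takes cargo quickly back from early endosomes to the surface, also had its highest level at the 2-cell stage: the oocyte libraries held 10.9, 8.53, 10.8 and 7.69 FPKM, the 2-cell libraries 30.8, 34.5, 35.1 and 26.6 and the morula libraries 3.14, 6.21, 5.49 and 3.55 (-2.58, SE 0.20, adjusted p = 3.22e-07).

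Rab2a, which acts in membrane transport at the Golgi, measured 66.03, 62.1, 72.4 and 73.4 FPKM in the 2-cell libraries with PBS and 23.5, 11.6, 16.1 and 11.01 FPKM in the morula libraries with PBS (log2 change -2.13, SE 0.21, adjusted p = 3.14e-06). It fell while Rab1a, also of the early secretory route, rose. Rab7 and Rab18, still abundant in morulae, also fell. Rab7 fell by 1.71 on the log2 scale, from 437, 448, 478 and 483 to 122, 138, 143 and 160.3 FPKM, and Rab18 fell by 0.62, from 95.0, 109.9, 110.2 and 107 to 73.7, 56.3, 79.5 and 65.3 FPKM. Rab7 had the second highest mean in morulae.

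The remaining falls were Rab6a, Rab33b, Rab22a, Rab10, Rab12, Rab25, Rab35, Rab9, Rab27a and Rab19, with log2 changes from -2.10 (Rab12) to -0.96 (Rab27a). Taken by role, 2 endoplasmic reticulum and Golgi members rose and 4 fell of 7 tested, 4 early endosome members rose and 3 fell of 9, and 2 members of recycling and exocytosis rose and 7 fell of 10. In the late endosome and lysosome group 2 rose and 4 fell of 6, in regulated secretion none rose and 3 fell of 3, and in the rest 3 rose and 1 fell of 5. Over all genes tested, 42.7% rose and 45.0% fell, and nothing particular to a role is read from these small counts. Under median-ratio scaling the endoplasmic reticulum and Golgi rises lose Rab1b. The 5 tested members that did not pass were Rab5c, Rab13, Rab23, Rab31 and Rab34, with adjusted p from 0.0581 to 0.686, of which Rab23 changed sign under median-ratio scaling.

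The ends shown above can be set beside these directions. Of the 6 genes whose last 4 codons start with a cysteine pair and end in 2 others, 4 were among the 13 that rose (Rab5a, Rab5b, Rab17 and Rab24) and none among the 22 that fell. Rab5c, another of the 6, passed as lower under median-ratio scaling. The form with 2 spaced cysteines was found in 1 of the 13 and 9 of the 22, the final pair in 3 and 7, and the form with a cysteine only in the first of the last 4 codons in 4 and 6. That last form includes Rab11a and Rab11b, whose cysteine there follows another. Rab5a and Rab5b are close relatives and are not independent. Rab17 passed the filter only through the morula libraries, and the value of Rab24 is uncertain because of Prelid1. These counts carry no test.

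The same comparison of stages was made in the libraries with VCD. Of the members, 41 were tested, of which 13 rose (all genes, 41.0%) and 23 fell (all genes, 43.9%), with a median of -0.90 over members and -0.08 over all genes. Under median-ratio scaling, which moved the latter to -0.37, 11 rose, without Rab1b and Rab39, and 23 fell. As deposited, the stages overlapped in 4 of the 36 that passed, Rab1b, Rab18, Rab25 and Rab39. For all genes this overlap was not counted, so nothing particular to the members is read from it. Rab1a measured 14.6, 23.6, 28.7 and 25.1 FPKM in 2-cell embryos with VCD and 185, 172, 176 and 188 in morulae with VCD (log2 change 2.96, SE 0.20, adjusted p = 1.26e-07). Rab5a measured 3.49, 5.51, 7.23 and 7.20 and 66.4, 42.4, 58.1 and 51.1 FPKM (3.04, SE 0.23, adjusted p = 3.21e-07). Rab3d measured 80.6, 74.8, 67.7 and 77.0 and 0.497, 0.885, 0.701 and 1.21 FPKM (-5.39, SE 0.17, adjusted p = 7.99e-10), and again no library of one stage reached the other. Rab8a rose by 1.72 (SE 0.22) on the log2 scale while Rab8b fell by 3.96 (SE 0.18). Rab32 was listed at 0 in 3 of the 4 morula libraries with VCD and at 0.0248 FPKM in the other. Rab40b, which was not tested with PBS as deposited, was lower in morulae with VCD (log2 change -0.44, SE 0.11, adjusted p = 0.0043). It passed the filter there only through the 2-cell libraries, at 1.08 to 1.46 FPKM against 0.586 to 0.740 in morulae. With PBS it was tested under median-ratio scaling and did not pass (-0.31, adjusted p = 0.0993 by limma). A fall particular to VCD is therefore not read from it.

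**Figure D4:**
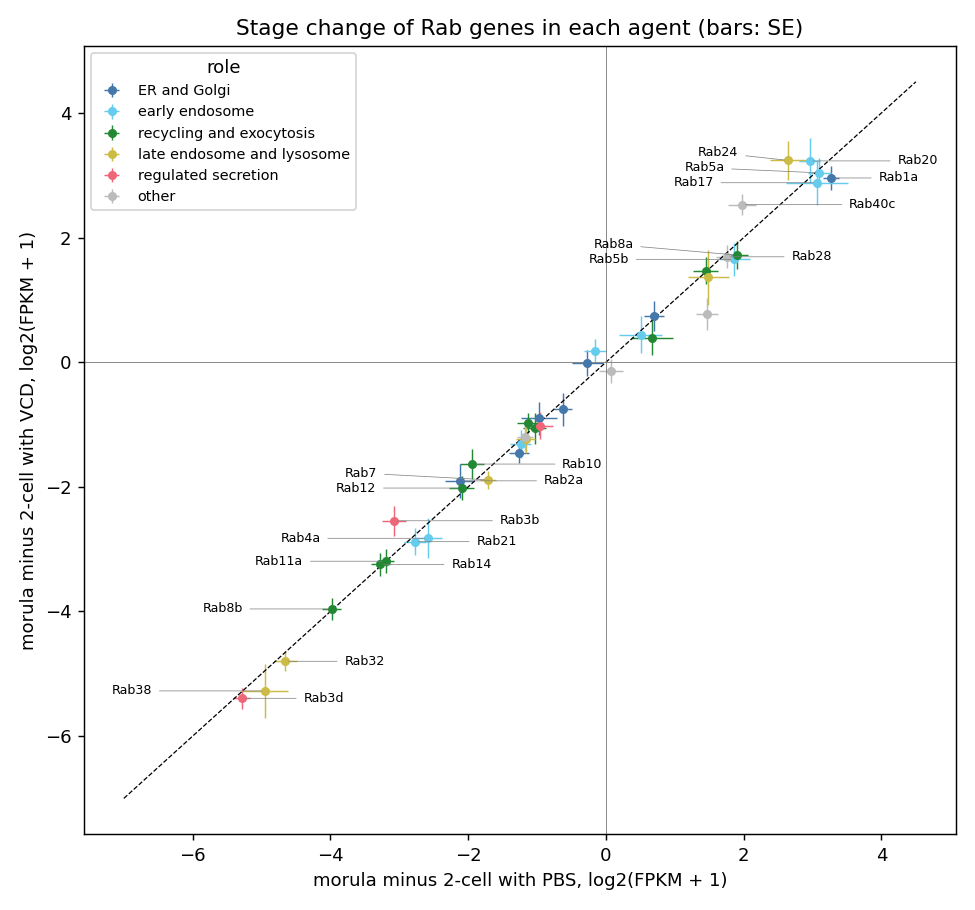
Change of each Rab gene from 2-cell embryos to morulae with PBS (horizontal) and with VCD (vertical), on the log2(FPKM + 1) scale, coloured by role; bars are SE, the dashed line is equality, and genes with a change beyond 1.5 with PBS are named. Points lie near the line, from Rab3d at -5.29 and -5.39 to Rab1a at 3.27 and 2.96.

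VCD itself moved no Rab gene past the threshold in any stage, and few genes of any kind. In MII oocytes 0 of 29 members tested passed, against 0.0115% of all genes. In 2-cell embryos 0 of 38 passed, against 0% of all genes, and in morulae 0 of 33, against 0.0100%. The smallest adjusted p of a member by limma was 0.999 in oocytes, 0.9993 in 2-cell embryos and 1 in morulae. At an unadjusted limma p below 0.05 the members numbered 0, 1 and 0, or 0%, 2.63% and 0% of those tested. All genes numbered 245, 391 and 311, or 2.81%, 3.44% and 3.12% of those tested. A test that misses its threshold does not show that the agents act alike, so the intervals matter. The 95% confidence interval of the difference lay within 2-fold on the log2(FPKM + 1) scale for 29 of 29 members in oocytes, 37 of 38 in 2-cell embryos and 25 of 33 in morulae, where the libraries spread more. These were 100%, 97.4% and 75.8% of the members, against 99.1%, 94.5% and 84.3% of all genes tested. The median size of the difference, without its sign, was 0.05 over members and 0.08 over all genes in oocytes, 0.07 against 0.11 at the 2-cell stage, and 0.16 against 0.14 in morulae.

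In oocytes the member of smallest p was Rab31, a Rab of transport from the Golgi to endosomes. It measured 3.91, 3.81, 3.17 and 2.29 FPKM with PBS and 2.64, 2.76, 2.49, 2.54 and 2.44 with VCD, a difference of -0.25 (95% interval -0.52 to 0.02). The groups overlapped. Rab6a measured 98.3, 79.6, 93.0 and 101 FPKM with PBS and 108, 105, 113, 116 and 82.4 with VCD (0.17, SE 0.11), also with overlap. Rab33b, of Golgi and autophagosome traffic, was at 3.89, 4.40, 4.30 and 4.58 and 5.06, 4.73, 5.75, 5.36 and 3.61 FPKM (0.15, SE 0.12). Rab38 differed by -0.10 (SE 0.10), with 129.8, 154, 137 and 149.5 FPKM with PBS and 125, 114, 152, 127 and 149 with VCD. Rab21 differed by 0.14 (SE 0.14), with 4.04, 5.47, 3.21, 4.32 and 3.89 FPKM with VCD. In neither did the groups part.

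In 2-cell embryos Rab3d had the smallest p of the members and was the only one of the 38 tested whose groups did not overlap. The share of all genes whose groups did not overlap was not counted, here or in morulae. Nothing particular to Rab3d is therefore read from its lack of overlap. It measured 64.3, 61.5, 63.9 and 57.997 FPKM with PBS and 80.6, 74.8, 67.7 and 77.0 FPKM with VCD, a difference of 0.27 (SE 0.10) with a 95% interval of 0.04 to 0.50. The unadjusted p was 0.0235 by limma. In oocytes the same gene measured 159, 159, 157 and 141 FPKM with PBS and 143, 140.1, 145, 179 and 164 with VCD, with overlap. Rab39, which had no oocyte value, measured 2.16, 2.65, 2.99 and 2.81 FPKM with PBS and 2.21, 4.11, 6.29 and 3.84 with VCD (0.43, SE 0.22). Rab6a measured 64.7, 73.2, 76.0 and 65.2 and 75.5, 78.2, 77.4 and 93.2 FPKM (0.21, SE 0.11). The groups overlapped in both genes. Rab29 measured 4.68, 13.8, 11.97 and 7.23 FPKM with PBS and 8.36, 3.93, 4.77 and 8.49 with VCD (-0.46, SE 0.32), and Rab23 2.10, 3.46, 2.94 and 1.95 and 3.19, 3.36, 3.27 and 2.84 FPKM (0.22, SE 0.16). The interval of Rab29, -1.17 to 0.25, was the one that reached beyond 2-fold.

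In morulae the groups overlapped for every one of the 33 tested members. Rab32, which was too low to be tested, measured 0.326, 0.0496, 0.34 and 0.0936 FPKM with PBS and 0.0248, 0, 0 and 0 with VCD, without overlap. In morula libraries 1 read at 1 kb was worth 0.0476 to 0.0653 FPKM, and Rab32 has 2339 exon bases. The lowest of its values thus rest on few reads, and no difference between the agents is read from them. Rab40c measured 3.19, 6.49, 4.44 and 4.0 FPKM with PBS and 5.26, 7.26, 6.23 and 6.66 with VCD (0.44, SE 0.22, unadjusted p = 0.0743 by limma). Rab10, of exocytosis and recycling at the surface, measured 12.4, 11.4, 6.97 and 8.98 and 13.9, 13.4, 16.9 and 10.5 FPKM (0.44, SE 0.22). Rab24, with the overlap named above, measured 19.0, 10.6, 11.9 and 6.90 and 17.1, 35.8, 15.3 and 10.9 FPKM (0.61, SE 0.36). Rab5c was at 11.8, 8.99, 8.07 and 9.01 FPKM with PBS and 15.3, 10.7, 11.9 and 10.5 with VCD (0.32, SE 0.20). Rab29 was at 33.7, 30.8, 24.98 and 18.5 FPKM with PBS and 13.7, 50.5, 11.8 and 10.3 with VCD (-0.59, SE 0.42), where 1 VCD library was above every PBS library and the others were below them. The widest intervals in morulae were those of Rab17, Rab38 and Rab29, for example -1.49 to 0.83 for Rab38.

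**Figure D5:**
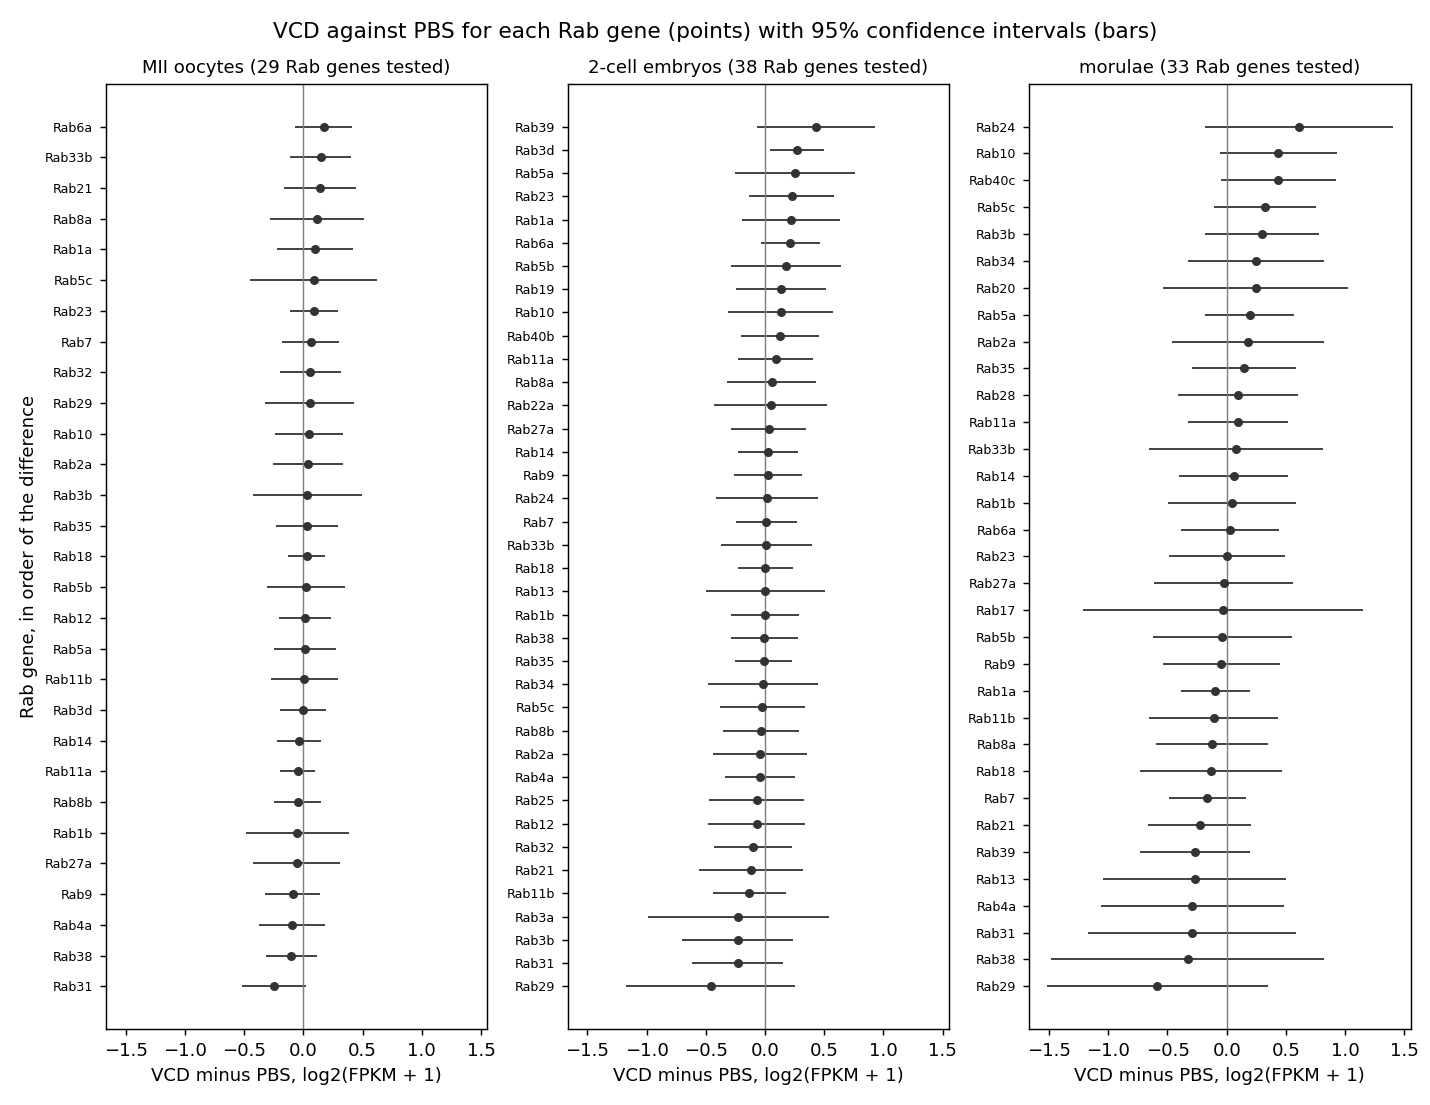
Difference between VCD and PBS for each tested Rab gene in MII oocytes (29 genes), 2-cell embryos (38) and morulae (33), on the log2(FPKM + 1) scale; points are estimates and bars 95% confidence intervals, ordered within each panel. All intervals except that of Rab3d in 2-cell embryos include 0, and the intervals are widest in morulae.

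Whether VCD acted differently in morulae and 2-cell embryos was tested as an interaction over the 16 embryo libraries. Of 42 members, 0 passed, against 0% of all genes, and the smallest limma adjusted p was 0.9995. Of the 42, 1 had an unadjusted p below 0.05, as did 502 of all 14144 genes. That member was Rab39, with an interaction of -0.70 (SE 0.30) and a 95% interval of -1.33 to -0.06: its mean was higher with VCD in 2-cell embryos (4.11 ± 1.68 against 2.65 ± 0.354 FPKM, SD, n = 4) and lower with VCD in morulae (7.48 ± 1.49 against 9.20 ± 1.76 FPKM). Rab40c (0.55, SE 0.27), Rab3b (0.53, SE 0.30), Rab5c (0.35, SE 0.24) and Rab1a (-0.31, SE 0.23) came next. Rab3b measured 17.9, 10.8, 13.5 and 21.3 FPKM in 2-cell embryos with VCD and 1.40, 2.19, 2.54 and 1.28 in morulae with VCD.

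The proteins that serve Rabs were followed from lists of known genes. The 8 genes of Rab prenylation and recycling include the enzyme that adds the lipid and its escort proteins. From 2-cell embryos to morulae with PBS, 6 of the 7 tested rose (Chm, Gdi2, Rabac1, Rabggta, Rabggtb and Rabif) against 42.7% of all genes. Under median-ratio scaling Rabif no longer passed (0.24, adjusted p = 0.119). Both subunits of the Rab geranylgeranyl transferase rose. Rabggtb went from 3.14 ± 0.201 FPKM (SD, n = 4) to 89.2 ± 7.51 (log2 change 4.44, SE 0.12, adjusted p = 1.84e-10), and Rabggta from 1.41 ± 0.121 to 21.0 ± 3.31 (3.18, SE 0.14, adjusted p = 4.55e-09). Rabggtb was at 10.9 ± 0.973 FPKM in oocytes with PBS, in the other table. The escort protein Chm went from 0.694 ± 0.134 to 6.64 ± 1.33 FPKM (2.16, SE 0.15). Its 2-cell mean was under 1 FPKM, so Chm passed the filter through the morula libraries and could hardly fail to differ. Gdi2, which keeps inactive Rabs soluble, rose from 26.9 ± 2.54 to 43.9 ± 4.40 FPKM (0.68, SE 0.13). Chm and Gdi2 are described because of their roles and were picked after their values were seen. With VCD, 5 of 8 tested rose (all genes, 41.0%). Under median-ratio scaling 3 of the 8 rose with VCD. Gdi2 (log2 change 0.31, adjusted p = 0.0757 by limma) and Rabac1 (0.50, adjusted p = 0.0526 by limma) then no longer passed.

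The counts of the next lists stand beside 42.7% higher and 45.0% lower over all genes with PBS, and 41.0% and 43.9% with VCD. Of the genes named from them, Dennd6a, Trappc2, Grtp1, Tbc1d19, Sytl4 and Rph3a each averaged under 1 FPKM in 1 stage. They passed the filter through the other stage and could hardly fail to differ, so their p-values are descriptions. Of 49 GEF genes, 35 were tested with PBS, and 13 rose and 18 fell, with a median of -0.35. Dennd6a, a DENN domain exchange factor known to act on Rab14, fell from 58.1 ± 7.83 to 0.343 ± 0.136 FPKM (-5.45, SE 0.15, adjusted p = 1.70e-10), and Trappc2, a subunit of the TRAPP complexes, from 19.0 ± 2.19 to 0.263 ± 0.14 FPKM (-3.99, SE 0.14, adjusted p = 8.97e-10). Rab14 itself fell between these stages, as given above. Of 38 GAP genes, 26 were tested, and 10 rose and 16 fell, with a median of -0.78. Grtp1, a TBC domain protein, rose from 0.113 ± 0.107 to 14.7 ± 0.714 FPKM (3.82, SE 0.13, adjusted p = 5.90e-10), and Tbc1d19 fell from 30.3 ± 5.60 to 0.645 ± 0.39 (-4.26, SE 0.20, adjusted p = 5.79e-09). Of 54 effector genes, 36 were tested, and 13 rose and 21 fell, with a median of -0.94. The smallest p were those of Sytl4 and Rph3a, effectors of Rab27 and Rab3 at secretory granules. Sytl4 fell from 55.8 ± 4.80 to 0.0868 ± 0.101 FPKM (-5.71, SE 0.13, adjusted p = 8.80e-11) and Rph3a from 17.3 ± 3.60 to 0.0589 ± 0.0284 (-4.09, SE 0.16, adjusted p = 1.95e-09). Their levels in oocytes with PBS, in the other table, were 61.9 ± 3.37 and 8.01 ± 0.928 FPKM. Under median-ratio scaling 11 GEF, 9 GAP and 10 effector genes rose with PBS, and 19, 16 and 22 fell. With VCD the counts as deposited were 11 up and 17 down of 34 GEF genes, 10 and 15 of 26 GAP genes, and 10 and 20 of 33 effector genes. Between VCD and PBS, no gene of the GEF, GAP and effector lists passed in any stage.

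Promoters were taken from RefSeq on GRCm38.p6 as the 250 bases before and 50 after each gene start, and 48 of the 59 members had one, with all 13 that rose and 18 of the 22 that fell. The 250 bases before the start are shown for 2 members that rose and 2 that fell, 5′ to 3′ on the gene's strand, to show what the windows hold: the capitals mark matches on either strand to the 9 motifs searched.

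Rab1a (chr11:20201162-20201411, + strand): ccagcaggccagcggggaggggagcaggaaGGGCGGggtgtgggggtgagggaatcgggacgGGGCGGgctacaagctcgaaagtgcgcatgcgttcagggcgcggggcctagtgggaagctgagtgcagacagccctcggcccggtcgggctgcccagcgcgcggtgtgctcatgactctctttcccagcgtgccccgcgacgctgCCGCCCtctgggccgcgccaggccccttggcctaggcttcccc

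Rab5a (chr17:53478984-53479233, + strand): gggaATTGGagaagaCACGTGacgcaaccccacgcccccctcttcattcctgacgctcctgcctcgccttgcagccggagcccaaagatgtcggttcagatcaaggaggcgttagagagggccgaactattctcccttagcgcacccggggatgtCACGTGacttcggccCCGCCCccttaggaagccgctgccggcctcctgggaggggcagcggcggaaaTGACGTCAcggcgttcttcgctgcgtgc

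Rab3d (chr9:21918184-21918433, - strand): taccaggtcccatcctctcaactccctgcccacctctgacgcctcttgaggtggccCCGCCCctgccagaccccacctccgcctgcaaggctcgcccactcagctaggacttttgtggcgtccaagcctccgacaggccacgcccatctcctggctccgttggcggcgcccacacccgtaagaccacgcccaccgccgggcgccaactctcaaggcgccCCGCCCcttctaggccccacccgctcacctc

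Rab8b (chr9:66919706-66919955, - strand): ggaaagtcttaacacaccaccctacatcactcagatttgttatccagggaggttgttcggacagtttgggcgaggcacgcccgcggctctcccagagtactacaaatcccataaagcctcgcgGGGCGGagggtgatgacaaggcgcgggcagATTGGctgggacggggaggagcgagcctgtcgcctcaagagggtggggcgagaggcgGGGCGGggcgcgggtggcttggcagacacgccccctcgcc

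The motifs were the GC box GGGCGG, the CCAAT box CCAAT, the E-box CACGTG, the cyclic AMP response element TGACGTCA, an ETS site CCGGAAG, a YY1 site AAGATGG, the Nr5a2 site TCAAGGTCA, the octamer ATTTGCAT and the Obox site GGATTA, none of which lies within another. At least 1 of a gene's windows held the GC box in 36 of the 48 members and in 38.2% of all genes, in 61.5% of the 13 that rose and 72.2% of the 18 that fell. The stretch shown for Rab1a held 3 GC boxes and those for Rab3d and Rab8b 2 each. The CCAAT box was in 54.2% of members and 41.1% of all genes. The E-box was in 12.5% of members and 8.1% of all genes. It was found in 3 of the 13 and 2 of the 18, and the stretch shown for Rab5a held 2 of them and a cyclic AMP response element, which was in 4.2% of members and 2.0% of all genes. For the ETS site the shares were 10.4% and 9.9%, for the YY1 site 14.6% and 7.3%, and for the Obox site 4.2% and 8.1%. No member's window held the Nr5a2 site, found in 0.5% of all genes, or the octamer, found in 2.0%. A match shows only that the letters are there.

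Some values carry a limit from the annotation. Apart from Rab24 and Rab20, exon bases that overlap an opposite-strand gene made up 59.3% of Rab2b, 19.0% of Rab6a (Mrpl48), 18.7% of Rab33b and 18.6% of Rab39b. Mrpl48 was at 8.31 ± 1.51 FPKM in 2-cell embryos and 3.44 ± 0.881 in morulae with PBS (SD, n = 4), and Rab6a at 69.8 ± 5.71 and 28.7 ± 4.75. Of the 50-base words of a member's transcripts, those also found in another gene made up 74.5% for Rab43, 58.1% for Rab4b, 11.2% for Rab7, 9.8% for Rab5b, 9.5% for Rab11b, 6.2% for Rab9 and 5.4% for Rab8b, so the values of Rab43 and Rab4b in particular are uncertain.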

How the data were processed

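RNA was measured by Smart-seq2 in 25 libraries of 6 groups. Per the submitters' processing notes, the authors aligned reads with Bowtie2 2.2.3 and TopHat2 2.0.12. Those notes name the build galGal4, a chicken assembly, but the deposited gene IDs are mouse Ensembl IDs. Which tool and annotation gave the counts is not stated in the sources used here. The deposited values are FPKM per gene, in 1 table for oocytes and another for embryos, which were not tested against each other.

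Of the listed IDs, 25073 in the oocyte table and 34065 in the embryo table were named through GENCODE M21 (GRCm38). The steps of low FPKM values gave each library's implied depth, and between 90.6% and 93.4% of values under 200 implied reads were whole within 0.01. The test was limma 3.58.1 (R 4.3.3) with a mean-variance trend, on log2(FPKM + 1), over genes that reached 1 FPKM in 4 or more of a comparison's libraries. Benjamini-Hochberg adjustment ran over all genes, with a threshold of 0.05. A count test had been planned in case the tables held counts. The limma step was tested on simulated data.

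Samples were grouped by the labels for stage and agent. There were 6 comparisons: VCD against PBS in each of 3 stages, the difference of that effect between embryo stages, and morulae against 2-cell embryos with each agent. The alternatives were other pseudocounts, filters and scaling, sample weights, a fit over all 16 embryo libraries, a replicate block, and each library left out in turn.

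The text gives values per library for the 5 members of highest mean in each stage with PBS, the 5 of smallest p in each VCD comparison and the interaction, and the 10 of largest rise and of largest fall in morulae, and group means for the 2 of smallest p in each list of Rab regulators. Members, roles and lists were chosen with earlier results of these data known. Sequences came from RefSeq (GRCm38.p6) promoters and GENCODE M21 transcripts. Promoter and coding-end windows were read with Python 3.11.15 and Biopython 1.88. Some results of the prenylation list are not reported here.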

Additional observations from a re-analysis of the deposited data

Results flagged for a closer look

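In groups of 4 or 5 libraries, 1 library of a Rab gene stood apart from the others (gap to the nearest library over the range of the group, above Dixon's 95% value) in 15 of 129 groups with a mean of 5 FPKM or more, or 11.6%. Chance gives about 1 in 20.

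In MII oocytes with PBS, library 4 was apart for 3 Rabs: Rab3d was at 140.7 FPKM against 157.2 to 159.3 in the others, Rab11a at 132.7 against 121.9 to 123.6 and Rab14 at 43.4 against 36.6 to 37.7. Library 1 was apart for Rab23, at 8.87 FPKM against 7.60 to 7.68.

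In 2-cell embryos with PBS, Rab10 was at 36.4 FPKM in library 1 against 41.3 to 41.8 in the others, and Rab14 was at 53.2 in library 3 against 40.8 to 42.6. With VCD, library 4 was apart for Rab6a, at 93.2 FPKM against 75.5 to 78.2, for Rab21, at 40.4 against 22.4 to 24.4, and for Rab38, at 130.2 against 163.6 to 169.0. Rab32 was at 32.4 FPKM in library 1 of that group against 25.01 to 25.92.

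In morulae with PBS, Rab9 was at 54.3 FPKM in library 3 against 39.1 to 39.9, and Rab11b was at 11.8 in library 4 against 19.2 to 20.4. With VCD, library 2 held 64.9 FPKM of Rab9 against 34.8 to 36.4 and 50.5 FPKM of Rab29 against 10.3 to 13.7, and library 4 held 23.6 FPKM of Rab35 against 17.1 to 18.2. Rab29 in that library was the widest gap as a ratio, and it lay above every morula library with PBS.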

How the results depend on the processing

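The number of Rab genes past the threshold was within 1.5 times its value for every alternative run except 1. With a minimum of 10 FPKM, 23 members passed in morulae against 2-cell embryos with PBS, where 24 were tested, against 35 of 40 as reported. In that comparison leaving out each library in turn gave 30 to 33 members, and with VCD 30 to 32, since fewer members then reach 1 FPKM in 4 libraries. No filter gave 42 and 39, and array weights 36 and 36, with Rab13 now higher with PBS. Between VCD and PBS, the count in each stage stayed at 0 under all alternatives run, each left-out library included. The labels do not say whether numbers shared across agents pair the libraries. Same-numbered libraries correlated between -0.325 and 0.378 in their deviations from the group means. The highest values were in morulae, 0.326 for number 1 and 0.378 for number 4. Whether the libraries are paired is therefore not known. A replicate block gave 0 members in each of the 3 stages. Depth limits low members: at 1 kb, 1 read was 0.0476 to 0.0663 FPKM, and an FPKM listed at 0 may be a missed transcript.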
